A study of Mus musculus with 4 samples.

Results

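The 5 genes examined here encode the subunits of the kinesin-2 motors of the mouse, namely Kif3a, Kif3b, Kif3c, Kifap3 and Kif17. They were taken by name, as 5 of 21938 protein-coding genes on chromosomes 1 to 19, X and Y, and binding of the transcription factor RFX2 was examined within 1000 bp upstream to 500 bp downstream of any annotated transcription start site (TSS). RFX2 had been immunoprecipitated from mouse testis and its DNA sequenced (ChIP-seq) in 2 experiments, each with an input library that had no antibody. Per the labels, the testes were decapsulated, from wild type mice of a mixed C57BL/6, 129/Sv and FVB/N background at postnatal day 29 to 30, whereas the text of the study speaks of dissociated germ cells of younger mice, and the sources used here do not settle which holds. All libraries were wild type, so there is one condition, no group to compare it with and no test of a difference.

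Kinesin-2 motors walk along microtubules toward their plus ends. In cilia and in the growing sperm tail they carry intraflagellar transport (IFT) trains, the protein assemblies that bring building material to the tip, and dynein-2 brings the trains back. KIF3A and KIF3B are motor chains that pair with each other and bind the accessory subunit KIFAP3, KIF3C is a further motor chain that pairs with KIF3A, and KIF17 works as a homodimer and is known in the testis as a carrier of a coactivator of CREM in spermatids. RFX factors bind the X-box, an inverted repeat, in promoters of many genes for cilia, and RFX2 is abundant in spermatocytes and spermatids.

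None of the 5 genes had a promoter peak in the combined list, the most stringent of the 3 peak lists, beside 5.26% of all protein-coding genes. In at least 1 of the 2 experiments 4 of 5 had one, beside 16.2% of all protein-coding genes. Kif3b alone had a promoter peak in both, as did 9.05% of all protein-coding genes. Kif3a and Kif3c had one in replicate 1 and not in replicate 2, Kif17 had one in replicate 2 and not in replicate 1, and Kifap3 had none. The peaks of Kif3c and Kif17 lay at internal TSSs, and neither gene counted when only the 5′-most TSS was used. The lists hold only what passed the thresholds of the peak caller, so a gene that is missing from a list had no called peak, which does not say that RFX2 was absent. The replicate 1 list held 39825 peaks, the replicate 2 list 21274 and the combined list 2726. Their scores are −log10 values of the peak caller, with a median of 4.47 in replicate 1, of 5.06 in replicate 2 and of 82.1 in the combined list, whose lowest −log10 p was 43.2.

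The stretches of DNA under the member peaks are given first, because the 4 genes differ most in what lies there. All are from the RefSeq genome, build GRCm38, plus strand, which is the coding strand of all 5 genes. Capitals mark the X-box in Kif3c and Kif3a and copies of a near half-site in Kif3b. In Kif17 they mark an inverted repeat of 6-base half-sites with 1 base between them. The X-box is here the 14-base inverted repeat of the 7-base half-site GTTGCCA and its reverse complement, with at most 3 mismatches. It reads the same on both strands.
Kif3c, coding exon inside the replicate 1 peak, chr12:3401683-3401791: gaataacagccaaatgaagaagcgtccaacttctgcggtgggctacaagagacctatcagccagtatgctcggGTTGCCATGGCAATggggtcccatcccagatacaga
Kif3a, first intron inside the replicate 1 peak, chr11:53567532-53567715: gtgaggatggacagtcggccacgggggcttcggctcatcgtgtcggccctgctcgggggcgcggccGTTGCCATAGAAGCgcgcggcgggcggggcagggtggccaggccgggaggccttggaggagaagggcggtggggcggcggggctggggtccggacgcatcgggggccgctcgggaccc
Kif3b, upstream part that the peaks of both replicates share, chr2:153291299-153291412: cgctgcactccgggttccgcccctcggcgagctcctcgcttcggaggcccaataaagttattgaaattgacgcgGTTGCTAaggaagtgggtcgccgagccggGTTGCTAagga
Kif17, upstream part of the replicate 2 peak, chr4:138262040-138262231: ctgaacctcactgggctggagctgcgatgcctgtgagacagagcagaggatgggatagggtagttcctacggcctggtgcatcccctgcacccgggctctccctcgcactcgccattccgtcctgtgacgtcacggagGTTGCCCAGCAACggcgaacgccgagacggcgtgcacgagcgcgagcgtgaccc

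**Figure D1:**
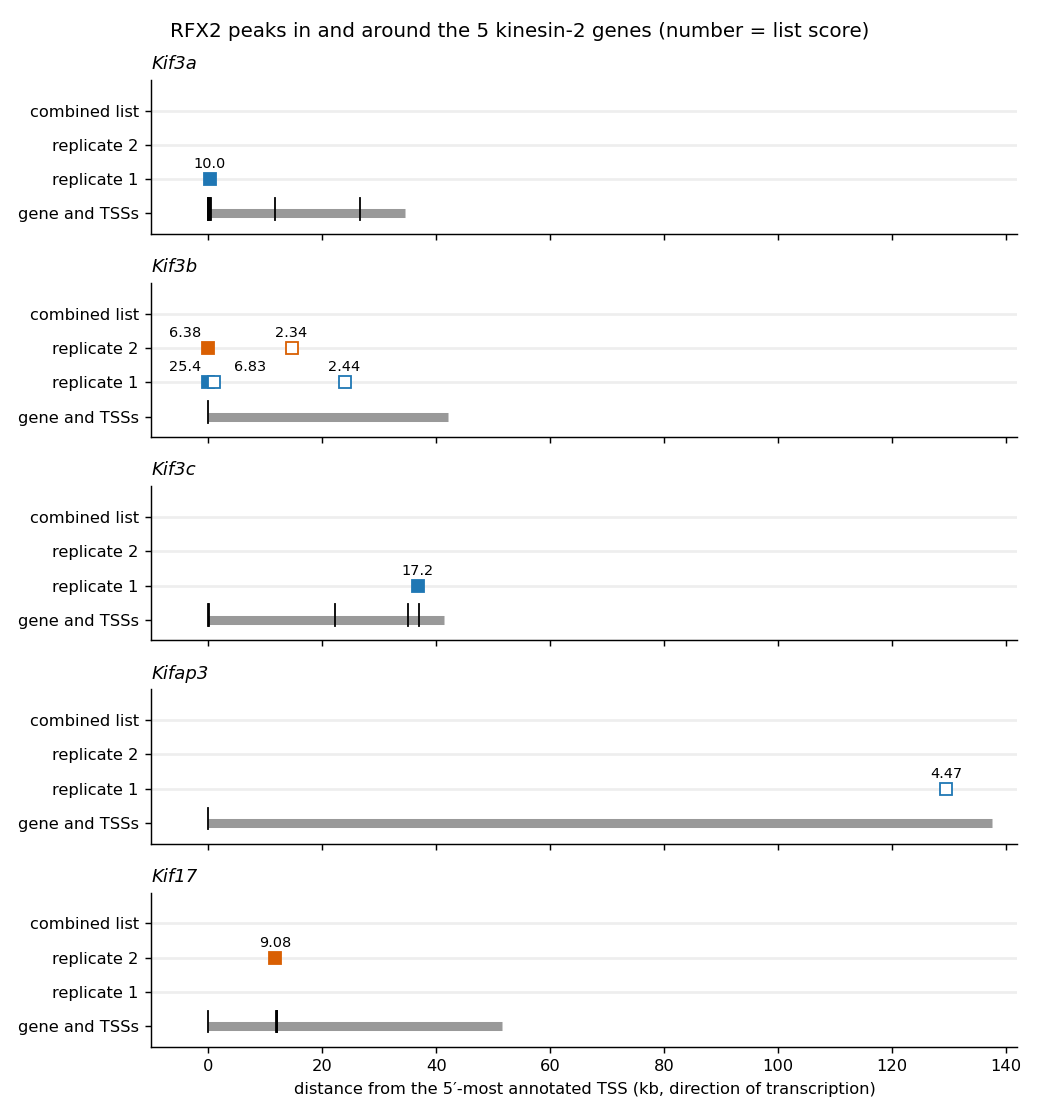
RFX2 peaks within the 5 genes, by distance of the peak centre from the 5′-most TSS in kb. Grey bars are genes, black ticks TSSs, filled squares peaks in a promoter window, open squares other peaks of the gene, and numbers the score in the list. Kif3b has filled squares in both replicates (25.4 and 6.38), the square of Kif3c lies at 36.7 kb and not at the 5′ end, and the combined row is empty for all 5 genes.

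To see how the family stood against all genes, the number of members with a promoter peak was set beside the same share over the 21938 protein-coding genes. In replicate 1 these were 3 of 5 members (60.0%, exact 95% interval 14.7 to 94.7), with 14% of all genes. In replicate 2 they were 2 of 5 (40.0%, 5.27 to 85.3), with 11.3% of all genes. A promoter peak in both replicates was present for 1 of 5 members (20%, 0.505 to 71.6) and for 9.05% of all genes, and a promoter peak in either replicate for 4 of 5 (80.0%, 28.4 to 99.5) and for 16.2%. In the combined list it was 0 of 5, with an upper bound of 52.2%, beside 5.26% of all genes. The intervals cover counting error only, and with 5 genes they are wide. They treat the genes as independent draws, but these were named and not sampled, so no wider share is estimated. Members with several TSSs had more sequence in which a peak could fall, as Kif3a had 7 TSSs, Kif3c 5, Kif17 4, and Kif3b and Kifap3 1 each.

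Kif3b, the partner chain of KIF3A (chr2:153291413-153333390), was the member with a peak in both experiments. In replicate 1 the peak covered chr2:153291255-153291520 with a score of 25.4, rank 3603 and thus within the top 9.05% of its list. In replicate 2 it covered chr2:153291299-153291505 with a score of 6.38, rank 5948, within the top 28.0%. Among promoter peaks alone the places were 1111 of 3140 in replicate 1 and 1565 of 2448 in replicate 2. The median scores of those promoter peaks were 12.6 and 10.3. The replicate 2 peak lay wholly inside the replicate 1 peak, the overlap was 207 bp, and the centres were 15 bp apart, at 26 and 11 bp upstream of the TSS of its only annotated transcript. Both peaks thus ran across the TSS into the first exon, which is untranslated. G and C made up 66.2% of the replicate 1 peak and 68.1% of the replicate 2 peak, above the interquartile ranges of promoter peaks, 44.6% to 56.7% in replicate 1 and 47.7% to 59.4% in replicate 2.

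The 2 peaks of Kif3b were modest for a replicated promoter. Of the 1985 genes with a promoter peak in both replicates, Kif3b took place 1244 by its score in replicate 1 and place 1674 in replicate 2, where the medians over those genes were 38.9 and 19.4. In the combined list were 1138 of the 1985 (57.3%), and Kif3b was among the 847 that were not. Within these 847 its replicate 1 score was high, at place 127 against a median of 14.3, and its replicate 2 score was below the median of 8.10, at place 538. The 1003 combined promoter peaks had a median score of 77.4 in replicate 1 and of 36.1 in replicate 2. Of these peaks, 16 (1.60%) scored lower than Kif3b in replicate 1 and 3 (0.299%) in replicate 2. Over all combined peaks, outside promoters too, 40 (1.47%) scored lower in replicate 1 and 46 (1.69%) in replicate 2. Kif3b therefore lay at the lower edge of the scores of combined peaks in both experiments.

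Wdr19, an IFT-A gene, shows this edge from the other side. It had the same replicate 1 score as Kif3b, 25.4, but a replicate 2 score of 12.7, and it was in the combined list, at rank 2594 of 2726, where its −log10 p was 46.1 and its enrichment over the local background 8.45-fold. The genes whose ranks in both replicates were nearest to those of Kif3b were Casc4, with scores of 26.1 and 6.09, Mapk7, with 24.8 and 6.46, and Prkar2b, with 24.6 and 6.99. None of these 3 genes had a combined promoter peak. They and Wdr19 were picked after the values were seen.

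**Figure D2:**
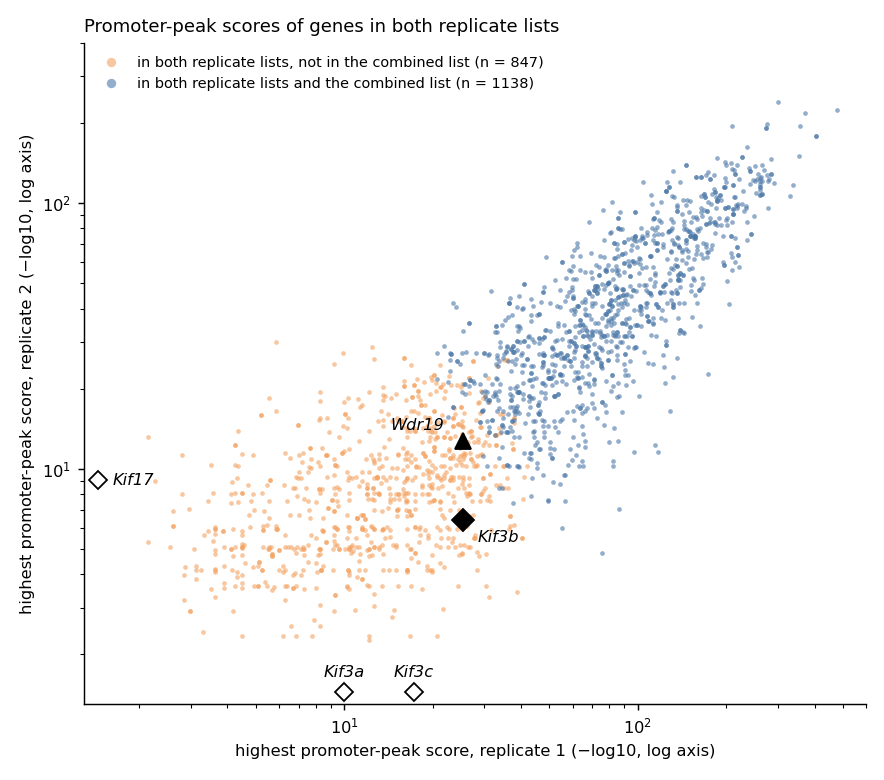
Highest promoter-peak score per gene in replicate 1 (x) and replicate 2 (y), both −log10 values on log axes. Points are the genes with a promoter peak in both lists, blue for the 1138 also in the combined list and orange for the 847 that were not. Kif3b (filled diamond) lies among orange points, below Wdr19 (triangle) at the same replicate 1 score, and open diamonds on the axes are the members with a score in one replicate.

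No X-box was found in either Kif3b peak, where the closest 14 bases had 5 mismatches, nor in its promoter window, where the closest had 4. The shared part held the 7-base string GTTGCTA in 2 copies, 40 and 11 bp upstream of the TSS, each differing from the half-site by C6T (base 1 is the first of the half-site). Of all 200-bp windows around annotated TSSs, 10.8% held 2 or more half-sites with at most 1 mismatch on either strand, and of replicate 1 promoter peaks 30.2% did in 200 bp around the centre. Half-sites were counted after the sequence had been seen. Further peaks of Kif3b were weak and in 1 list each. A replicate 1 peak of score 6.83 began 589 bp downstream of the TSS, just outside the promoter window, and peaks of score 2.44 (replicate 1) and 2.34 (replicate 2) lay in introns 23.9 and 14.6 kb downstream.

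Kif3c (chr12:3365132-3406494) had the member peak with the best X-box, and it was far from the 5′ end of the gene. The replicate 1 peak chr12:3401626-3402094 had a score of 17.2 and rank 5228 (top 13.1% of the whole list). This peak was at place 1367 of 3140 among replicate 1 promoter peaks. It counted as a promoter peak because of the TSS of Kif3c-202, a short transcript with a retained intron, 204 bp downstream of the peak centre. From the 5′-most TSS the centre was 36.7 kb away, and no promoter window of a protein-coding Kif3c transcript held a peak. The X-box chr12:3401756-3401769 differed from the inverted repeat by C14T alone, where base 1 is the first of the repeat as printed. It lay inside a coding exon, exon 7 of 9 in Kif3c-205 and exon 6 of 8 in Kif3c-201. The site began 308 bp upstream of the Kif3c-202 TSS and its middle was 98 bp from the peak centre.

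Kif3a, the chain shared by the KIF3 motors (chr11:53567379-53601967), had the weakest of the member promoter peaks in replicate 1. The peak chr11:53567504-53567738 had a score of 10 and rank 8518 (top 21.4% of the whole list). Among replicate 1 promoter peaks its place was 1726 of 3140, and its score was below their median of 12.6. The peak centre was 95 bp downstream of the TSS of Kif3a-202 and 242 bp downstream of the 5′-most TSS. Its X-box chr11:53567598-53567611 lay in the first intron, 17 bp from the peak centre, with the left half-site intact and G9A, C11A and A13G in the right one. The DNA of the peak was 76.6% G and C, which like that of Kif3b is above the interquartile range, while the Kif3c peak with 46.1% was within it. The part of base composition in the member peaks was not tested.

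Kif17 (chr4:138250435-138301967) had its peak at an internal promoter and in replicate 2. The peak chr4:138262040-138262243 had a score of 9.08 and rank 4127 (top 19.4% of the whole list). Among replicate 2 promoter peaks its place was 1333 of 2448, and its score was below their median of 10.3. The centre was 91 bp upstream of the TSS of Kif17-201, the transcript with the longest coding sequence of the gene. This TSS is 11.8 kb downstream of the 5′-most one, that of Kif17-202, and is called internal for that reason only. The RefSeq promoter of Kif17, chr4:138262001-138262300, spanned this TSS and held the peak centre. The G and C content of the peak, 66.7%, was above the interquartile range of replicate 2 promoter peaks. The closest 14 bases to the X-box inside the peak had 6 mismatches. A 14-base X-box, GTAGGCATGGCAGC at chr4:138261831-138261844, was 196 bp before the start of the peak, its middle 395 bp upstream of the TSS, with T3A, C5G and A13G.

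The peak of Kif17 did hold an inverted repeat of shorter half-sites. After the sequence had been seen, the peaks were searched for the 6-base half-site GTTGCC and its reverse complement 0 to 3 bases apart with at most 1 mismatch over the 12 bases. In Kif17 such a match, GTTGCCCAGCAAC, with 1 base between the half-sites and G8A, started 54 bp upstream of the TSS at chr4:138262178-138262190. Kif3c was the other member with such a match, at its X-box, with 2 bases between the 6-base half-sites. The members were searched over the whole peak, and the Kif3c match lay partly outside the 200 bp around the peak centre. The closest in Kif3a had 2 mismatches and the closest in Kif3b had 4. The search found a match in 0.679% of 200-bp windows around annotated TSSs, in 10.2% of replicate 1 promoter peaks and in 12.4% of replicate 2 promoter peaks, each over 200 bp around the centre. The same Kif17 peak also held TGACGTCA, the palindromic cAMP response element that CREB and CREM proteins bind, 67 bp upstream of the TSS and with 5 bases between it and the repeat. This 8-base string was searched after it had been seen, it was in none of the other member peaks, and 1.43% of the windows around annotated TSSs and 2.00% of replicate 2 promoter peaks held it.

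The X-box with no gap was in 2 of the 4 genes with a peak, Kif3a and Kif3c, over the whole peak, and in Kif3a alone in 200 bp around the centre. For comparison, 26.2% of replicate 1 and 30.6% of replicate 2 promoter peaks held one in 200 bp around the centre, as did 33.1% of combined promoter peaks, and 58.9% of the latter did around the summit. Of replicate 1 promoter peaks, 34.4% of those met by a replicate 2 peak and 15.4% of those not met held an X-box. Of 1501-bp windows of annotated promoters, 8.98% held one. The replicated peak of the family, that of Kif3b, thus had no such match, and the matches in Kif3a and Kif3c were in peaks of 1 experiment.

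To see whether it was usual for peaks of these scores to appear in 1 experiment, each list was split into 10 bins of equal size by score. In bin 1 of replicate 1, the highest, with Kif3b, 98.6% of promoter peaks were met by a replicate 2 peak. In bin 2, with Kif3c, these were 68.1%, and in bin 3, with Kif3a, 38.8%. In replicate 2, 93.2% of promoter peaks of bin 2, with Kif17, were met by a replicate 1 peak, and 78.1% of bin 3, with Kif3b. In bin 2 of replicate 2, 6.75% of promoter peaks were not met, as the Kif17 peak was not. Its score of 9.08 was the lowest of bin 2 and also the highest of bin 3, where 21.9% were not met. Which of these bins held Kif17 rested on the order of tied scores. In both bins not being met was the less common outcome. For Kif3a not being met was the more common outcome.

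**Figure D3:**
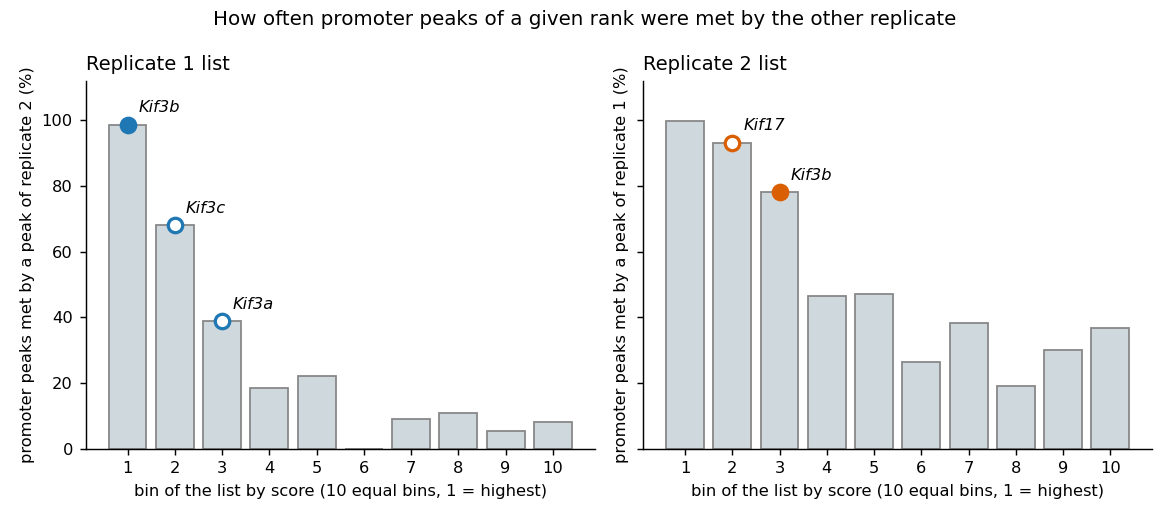
Share of promoter peaks met by a peak of the other replicate (y, %), in each of 10 bins of a list by score (x, bin 1 highest), for replicate 1 (left) and replicate 2 (right). Circles mark the bins of the member peaks, filled where the member's peak was met (Kif3b) and open where it was not (Kif3a, Kif3c, Kif17).

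Kifap3, the accessory subunit (chr1:163779583-163917109), had no promoter peak in any list and no X-box in its promoter window, where the closest 14 bases had 5 mismatches. Its one peak inside the gene, in an intron 129 kb downstream of the TSS, had a replicate 1 score of 4.47, which is the median of that list. The peak nearest to its TSS was 60.0 kb away in replicate 1 and 167 kb away in replicate 2. Over all genes the median distance from the closest TSS to a peak was 16.8 kb in replicate 1 and 28.4 kb in replicate 2, and 18.4% and 11.3% of genes were farther from a peak than Kifap3.

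The nearest combined peaks of Kif3a, Kif3b, Kif3c and Kif17 were far from their promoters. For Kif3b it was 130 kb upstream in the promoter of Tm9sf4, with a −log10 p of 86.0, rank 1288 and 10.7-fold enrichment. For Kif17 it was 259 kb away, between genes and nearest to Vwa5b1, with a −log10 p of 46.1, rank 2594 and 8.45-fold enrichment. That peak held GTTGCCGTGGCAAC at chr4:138522431-138522444, an X-box with the single change A7G. For Kif3c it was 485 kb away in an intron of Dnmt3a, with a −log10 p of 48.7, rank 2432 and 12.4-fold enrichment. For Kif3a it was 552 kb away with P4ha2 as the nearest gene, a −log10 p of 61.7, rank 1885 and 18.3-fold enrichment. The median over 21755 genes was 204 kb, with an interquartile range of 60.5 to 558 kb, and these 4 members all lay within that range.

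**Figure D4:**
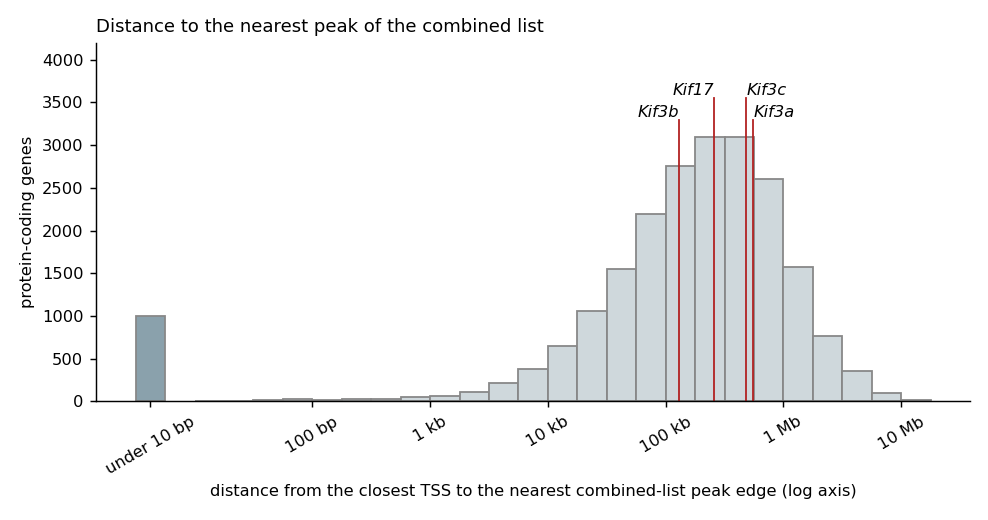
Number of protein-coding genes (y) by the distance from their closest TSS to the nearest edge of a combined peak (x, log axis). The bar at the left holds distances under 10 bp. Red lines are 4 members, from 130 kb (Kif3b) to 552 kb (Kif3a), all in the broad hump of genes far from a combined peak.

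To place the motor beside the machinery it carries, the same count was made for other genes of intraflagellar transport. Of 18 IFT-B genes, whose products form the trains that kinesin-2 pulls, 13 (72.2%) had a combined promoter peak, such as Ttc30a2 at rank 9 with a −log10 p of 369 and Ttc26 at rank 190 with 218. Of 6 IFT-A genes 3 (50%) had one. All 5 genes listed here for dynein-2 (Dync2h1, Dync2li1, Wdr34, Wdr60 and Tctex1d2) had one. Among them the motor heavy chain Dync2h1 was at rank 57 with a −log10 p of 284. Of all protein-coding genes 5.26% had one. In the kinesin-2 family the count was 0 of 5, too few genes to set a share beside these lists. For partners and kinases of kinesin-2 it was 0 of 9. In that group Mak, a kinase of the ciliary tip, had a replicate 1 promoter peak of score 10.2, Tsn had a replicate 2 promoter peak of score 4.14, and Cdk20 had one in both replicates, of 8.14 and 10.6. Of 34 other Kif genes 6 (17.6%) had a combined promoter peak, with Kif9, a kinesin of the sperm and cilium axoneme, at rank 8 with a −log10 p of 373. The highest score of a kinesin-2 gene in replicate 1, the 25.4 of Kif3b, compared with 251 for Dync2h1 and 274 for Kif9. Some IFT genes were at or below it, as Wdr19 had 25.4, Ift43 19.8, Ift88 9.88 and Ift80 3.19, and Ift20, Ift46, Hspb11 and Ttc21b had no promoter peak in replicate 1. The differences between these lists were not tested, since the members were chosen with results of these data known.

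**Figure D5:**
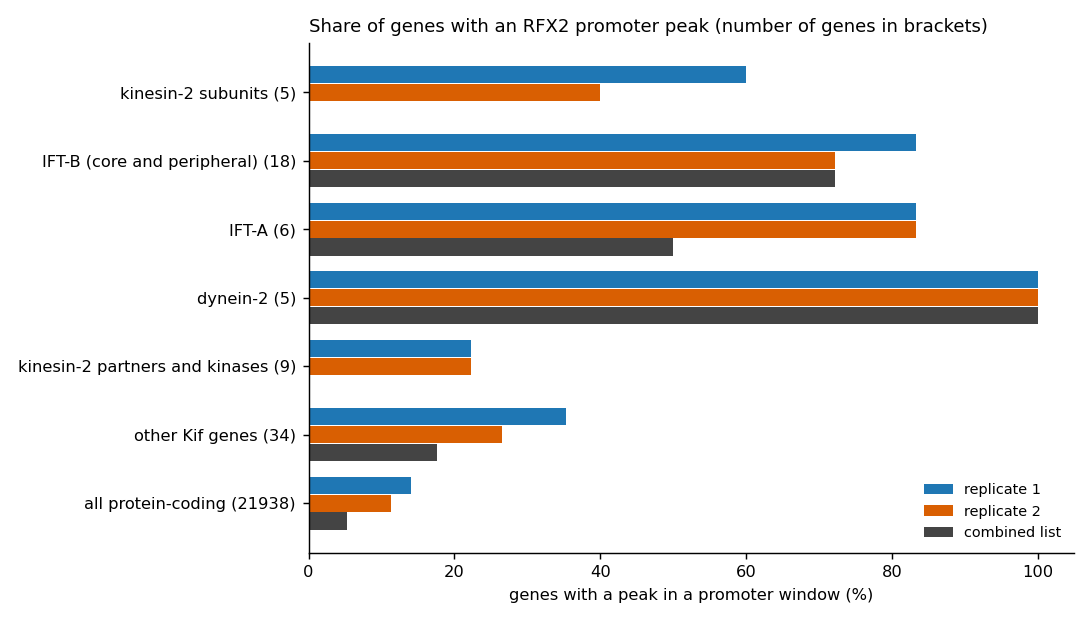
Share of genes with an RFX2 promoter peak (x, %) in replicate 1, replicate 2 and the combined list, for the kinesin-2 subunits, other gene lists and all protein-coding genes. The kinesin-2 subunits have bars for the replicates (60.0% and 40.0%) and none for the combined list, beside 5.26% of all genes. The listed dynein-2 genes reach 100% in all 3.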

How the data were processed

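Peak lists were deposited for 2 RFX2 ChIP-seq experiments, with a further, combined list. Per the study's methods, the authors mapped reads with Bowtie 0.12.7 to GRCm38 (Ensembl release 70), discarded reads with several locations, called peaks with MACS2 against input, and took as reproducible the peaks that passed a threshold on the irreproducible discovery rate (IDR) between replicates. The submitters' processing notes give MACS2 2.0.10.20130520 and CASAVA 1.8.2. In 1 run of replicate 2 they took out reads matching the human genome, which can also remove mouse reads of conserved sequence. Its part in the results was not tested. The deposited replicate lists hold a −log10 value per peak (p or q is not stated). The deposited combined list holds −log10 p, −log10 q, a score (10 times −log10 p) and the fold enrichment over local background. Its peak names begin with "all", so it was read as a call on pooled reads of both replicates, restricted to the highest ranks. How its lower limit relates to the IDR step is not given in the sources used here. It therefore shares reads with both replicate lists, and the read depth is unknown.

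Positions are given as 1-based, after 1 was added to the starts in the lists. TSSs came from GENCODE release 21 of the mouse (GRCm38) and sequence from RefSeq (GRCm38.p6). The RefSeq promoter table had entries for all 5 members. A promoter peak overlapped the window from 1000 bp upstream to 500 bp downstream of any TSS by at least 1 bp, and ranks run from the highest score. Replicate lists give no summit, so peak centres were used. Counts matched those of bedtools 2.31.1. Overlap and motif searches (Python 3.11.15, numpy 2.4.6, pandas 2.3.3, pysam 0.24.0) were tested on simulated data, intervals are Clopper-Pearson (scipy 1.17.1), and figures were drawn with matplotlib 3.10.9. The members, gene lists and windows were chosen with earlier results of these data known. All 5 members were named; of other genes, those with a combined promoter peak in a gene list and those nearest to a member's nearest peak could be named. Kif3b's nearest genes by rank, and Mak, Tsn, Cdk20 and the IFT genes without a combined promoter peak, were named after their values were seen. The combined peak nearest to Kifap3 is not reported here.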

Additional observations from a re-analysis of the deposited data

How the results depend on the processing

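Of 24 recomputed counts, 19 stayed within 1.5 times the count given in the report and 5 moved. No member had a combined promoter peak under any of the 6 alternatives tried for that list (a window from 500 bp upstream to 50 bp downstream, the 5′-most TSS, the summit in the window, the top 50% of the list, RefSeq TSSs and protein-coding transcripts). With the 5′-most TSS alone, the replicate 2 count fell to 1, as Kif17 was lost, and the replicate 1 count was 2, as Kif3c was lost. Kif3c was also lost with RefSeq TSSs and with protein-coding transcripts. Without replicate 1 or without replicate 2, the count of members with a promoter peak in the other replicate was 2 and 3, against 1 in both. The X-box was in 1 member within 200 bp of the peak centre (Kif3a) and in 1 with at most 2 mismatches (Kif3c). The search for 6-base half-sites 0 to 3 bases apart kept the count at 2, but with Kif3c and Kif17 in place of Kif3a and Kif3c. RefSeq TSSs, protein-coding transcripts and the X-box alternatives were chosen after seeing the data. No alternative could be computed for rank, summit distance or X-box in combined promoter peaks, since no member had one. No paired analysis was possible because all ChIP libraries form 1 group. The lists carry no read depth, so how far depth limits the calls is unknown.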
